A study of Mus musculus with 26 samples.

Results

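The genes described here are 40 genes of fatty acid oxidation and lipid handling, taken by their symbols from a table of 40413 genes measured in the left ventricle of the mouse. All 40 were found in the table, and all 40 passed the filter on low counts that left 15543 genes to test. The mice were adults of the blood-pressure-normal strain BPN/3J or the hypertensive strain BPH/2J, and each received once daily either vehicle or Cmpd17b, a formylpeptide receptor agonist, at 50 mg/kg/day by intraperitoneal injection for 28 days. Each library comes from 1 mouse: 7 of BPN/3J with vehicle, 5 of BPN/3J with Cmpd17b, 7 of BPH/2J with vehicle and 7 of BPH/2J with Cmpd17b. Of the last group 6 were used, because replicate 7 carries a kidney profile. BPN/3J and BPH/2J are 2 separate inbred strains, so a difference between them holds every difference of genotype along with blood pressure. The labels do not state the sex of the mice or what the vehicle was.

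Fatty acids are the main fuel of the adult heart. They are released from circulating triglyceride by lipoprotein lipase or taken from droplets inside the cell, are joined to coenzyme A, cross the inner mitochondrial membrane as carnitine esters, and are then shortened by the repeated steps of beta-oxidation, whose electrons reach the respiratory chain through the electron transfer flavoprotein. The nuclear receptor PPARα (Ppara) and its coactivator PGC-1α (Ppargc1a) drive many of these genes, and Pdk4, Ucp3, Angptl4, Acot1 and Acot2 are commonly used as readouts of PPAR activity.

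The sequence just before the start of a gene is where such receptors could bind, so the 250 bases before the start are shown for 4 members whose level differed between the strains: Pdk4 and Ucp3, which were higher in BPH/2J under vehicle, and Slc25a20 and Pnpla2, which were lower in BPH/2J, the first under Cmpd17b and the second under both treatments. They are RefSeq sequences of the mouse genome build GRCm38.p6, not of the build the counts were made on, and not of BPN/3J or BPH/2J. In order the windows are chr6:5496279-5496528 on the minus strand, chr7:100472741-100472990, chr9:108661886-108662135 and chr7:141454938-141455187, the last 3 on the plus strand. Each is written 5′ to 3′, and capitals mark the motif AGGTCA, the half-site of nuclear receptors.
Pdk4: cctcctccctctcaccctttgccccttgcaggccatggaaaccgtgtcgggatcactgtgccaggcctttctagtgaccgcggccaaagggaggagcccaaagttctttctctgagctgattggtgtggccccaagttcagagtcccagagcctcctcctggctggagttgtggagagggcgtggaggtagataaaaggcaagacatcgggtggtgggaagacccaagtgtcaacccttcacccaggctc
Ucp3: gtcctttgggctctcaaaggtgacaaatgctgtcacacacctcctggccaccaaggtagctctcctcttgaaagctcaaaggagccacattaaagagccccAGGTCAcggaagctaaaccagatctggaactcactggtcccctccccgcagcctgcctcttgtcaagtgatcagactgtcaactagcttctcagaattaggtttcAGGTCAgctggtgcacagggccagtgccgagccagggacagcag
Slc25a20: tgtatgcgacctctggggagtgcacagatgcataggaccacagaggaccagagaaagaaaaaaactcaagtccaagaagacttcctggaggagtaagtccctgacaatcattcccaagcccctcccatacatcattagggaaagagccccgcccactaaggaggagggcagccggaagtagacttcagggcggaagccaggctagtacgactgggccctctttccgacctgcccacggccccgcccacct
Pnpla2: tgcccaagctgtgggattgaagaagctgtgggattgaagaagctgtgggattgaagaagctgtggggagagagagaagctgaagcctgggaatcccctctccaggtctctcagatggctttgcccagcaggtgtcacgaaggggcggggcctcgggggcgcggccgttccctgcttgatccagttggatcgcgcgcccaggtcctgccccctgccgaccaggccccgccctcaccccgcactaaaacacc

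Ucp3 held the half-site in 2 places on the strand of the gene, from 149 to 144 and from 44 to 39 bases before the start, and the windows of Pdk4, Slc25a20 and Pnpla2 held none. Of the 40 members, 32 had such a window in the RefSeq table, and Lpl, Angptl4, Cpt1b, Crat, Acaa2, Decr1, Dgat1 and Dgat2 did not. The motif AGGTCA, searched on both strands, was present in 7 of the 32 members (21.9%): Acadm, Acadvl, Cd36, Cpt1a, Echs1, Plin5 and Ucp3. It was present in 15.8% of the 27025 genes that had a window. The motif AGGNCANAGGNCA, the paired half-site at which PPAR binds with its partner and which can overlap AGGTCA, was in 0 of the 32 members and in 0.400% of all genes. The motif TCAAGGTCA of the estrogen-related receptors, which contains AGGTCA, was in 0 of the 32 members and in 0.422% of all genes. A match of these letters is a description of the window only.

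Total counts ran from 25476100 to 48648200 per library. The 40 members together took between 1.57% and 2.62% of the counts of a library, and genes of the mitochondrial genome took between 26.2% and 38.7%. Heart muscle markers were high in all 25 libraries, with summed levels of Myh6, Myl2, Tnnt2, Tnni3, Actc1, Ryr2, Pln and Mb between 58767 and 73250 CPM, the counts scaled to library size. Of the fat cell markers, Adipoq reached at most 1.03 CPM and Ucp1 was at 0 in 18 of 25 libraries, but Car3 reached 18.8 CPM. The summed fat cell markers were highest in replicates 2 and 1 of BPN/3J with vehicle, at 19.2 and 13.7 CPM. The median library had 2.63 CPM. Between the strains under vehicle Car3 was at -1.38 and was not called. In the library of BPH/2J with Cmpd17b that was left out, the same heart muscle markers summed to 52.5 CPM and the kidney tubule markers to 34238 CPM. In bulk tissue, fewer cells of a type and less RNA per cell cannot be told apart.

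Of the 25 libraries used, 2 stood apart in the members, and their replicate numbers are given wherever a result rests on them. These libraries also had the lowest quality weights of limma voom, which are estimated over all genes. The weights were 0.0799 for BPN/3J vehicle replicate 7 and 0.330 for BPH/2J Cmpd17b replicate 6. BPN/3J vehicle replicate 7 lay at a median of -0.54 (log2) from the mean of each member over all libraries, and had the highest summed endothelial markers, 1157 CPM, where the median library had 513 CPM. It also had the highest summed erythroid markers, 2482 CPM, and the highest mitochondrial share, 38.7%. BPH/2J Cmpd17b replicate 6 lay at a median of -0.54 as well, and had the highest summed fibroblast markers, 2141 CPM, and the highest summed atrial markers, 3099 CPM, mostly from Nppa. It also had the highest summed macrophage markers, 209 CPM, and the lowest mitochondrial share, 26.2%. That replicate is also the 1 library of its group from batch 2 of the study's 2 batches. Batch 2 further holds replicates 1 and 7 of BPH/2J with vehicle and replicates 1 and 2 of BPN/3J with vehicle, and BPN/3J with Cmpd17b has batch 1 alone. The part of these markers in the results was not tested.

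**Figure D1:**
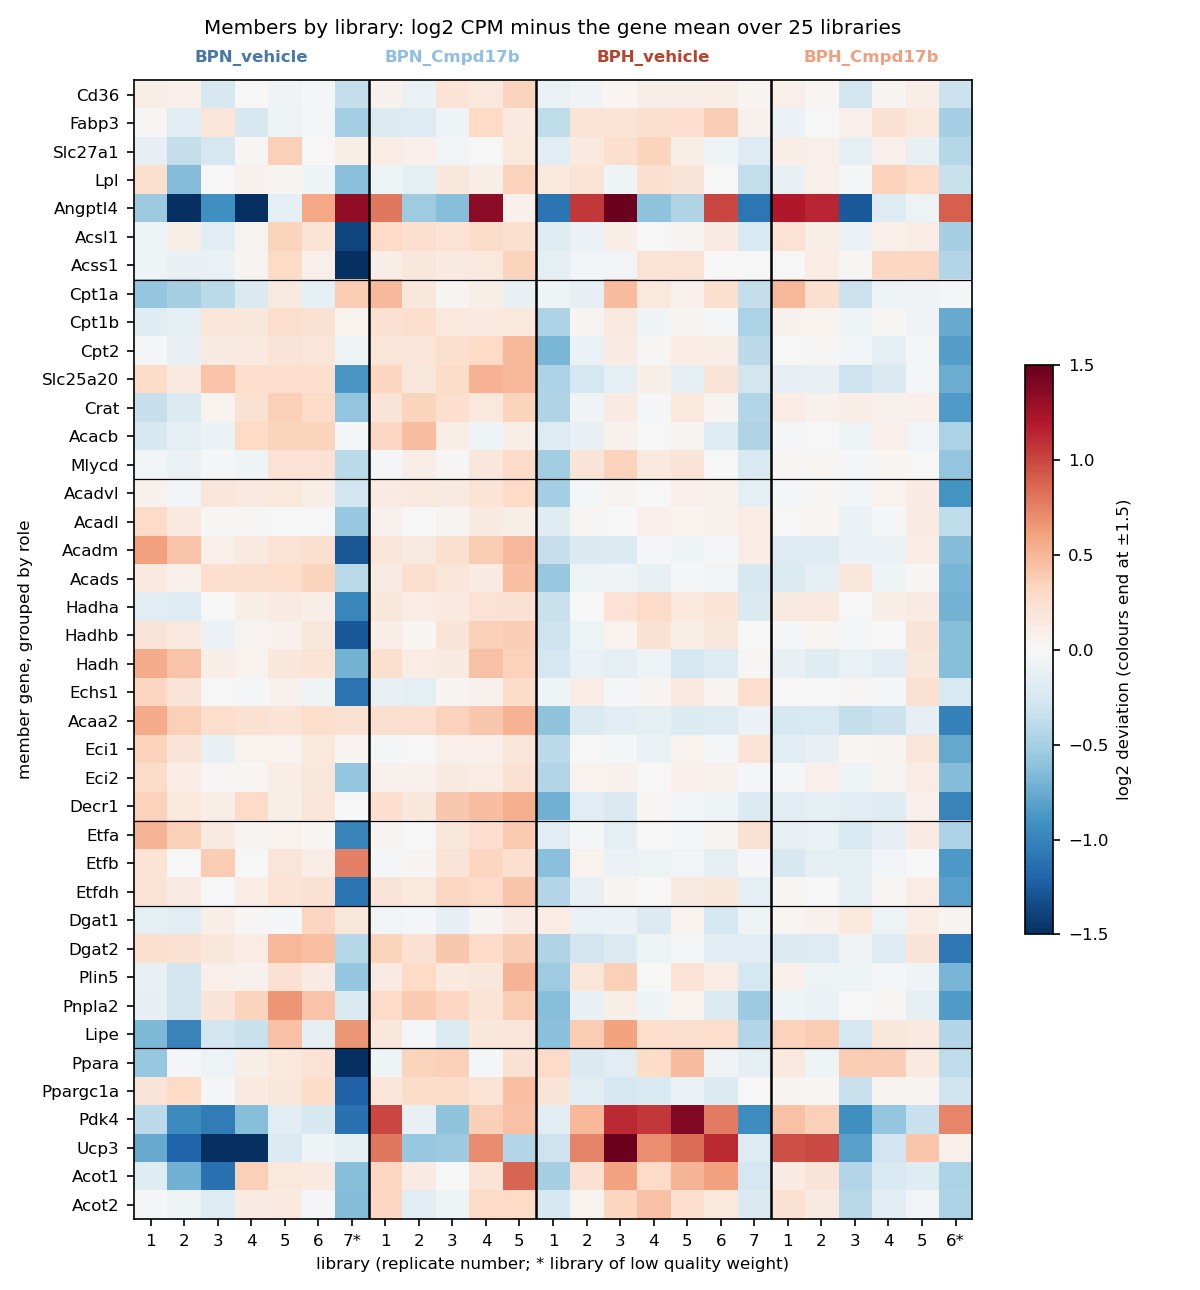
Each row is one of the 40 members, grouped by role, and each column one of the 25 libraries, grouped by strain and treatment. The colour is the log2 level of the member minus its mean over all 25 libraries. The columns of BPN/3J vehicle replicate 7 and BPH/2J Cmpd17b replicate 6 are low over most rows, with medians of -0.54 each.

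The first comparison asked how the hypertensive strain differs from the normal strain without drug. In BPH/2J left ventricle 2 genes were higher, 7 were lower, and the median of all 40 was -0.02 (log2), with 20 members negative and 20 positive. That median depended on the libraries: it was -0.12 with 27 negative without BPN/3J vehicle replicate 7, 0.10 with 17 negative in batch 1 alone, and -0.20 with 30 negative in batch 2 alone. The higher genes were Pdk4 and Ucp3. The lower genes were Cpt1b of the carnitine shuttle, Acads, Acaa2 and Decr1 of beta-oxidation, Etfb of the electron transfer flavoprotein, and Dgat2 and Pnpla2 of triglyceride storage and release. The 9 members called are 22.5% of the 40, and of all genes tested 18.9% were called, 9.16% as higher and 9.73% as lower, with an all-gene median of -0.00. The share of members called is thus near the share of all genes, while the 7 that were lower stand against 9.73% of all genes. Calls are by the quasi-likelihood test of edgeR with Benjamini-Hochberg adjustment over all 15543 genes, at an adjusted p of 0.05, and differences are log2 values given with their standard error.

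The count of members called depended on which libraries were in the fit. Without BPN/3J vehicle replicate 7 and BPH/2J Cmpd17b replicate 6, 19 of the 40 members were called (47.5%), 3 higher and 16 lower, where 25.8% of all genes were called, 12.5% as higher and 13.2% as lower. All 9 members called with 25 libraries were among those 19. The added genes were Lipe as higher, and Cpt2, Slc25a20, Crat, Acacb, Acadvl, Acadm, Hadh, Etfdh and Ppargc1a as lower. BPH/2J Cmpd17b replicate 6 is in neither group of this comparison. Leaving out BPN/3J vehicle replicate 7 alone gave 17 members, where 24.2% of all genes were called. That library was low in most members, so leaving it out raises their BPN/3J level by construction. The larger count is thus no separate support for lower members in BPH/2J. Leaving out BPN/3J vehicle replicate 1 alone gave 5 members, where 17.4% of all genes were called. In batch 1 alone 7 members were called, 17.5% of the 40 against 15.6% of all genes: Pdk4, Ucp3 and Fabp3 as higher and Acaa2, Etfb, Pnpla2 and Dgat1 as lower.

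No uptake or activation gene passed the test between the strains under vehicle with all 25 libraries. Cd36, the fatty acid transporter of the cell surface, ran from 1011 through a median of 1282 to 1383 CPM in BPN/3J with vehicle and from 1214 through 1336 to 1393 CPM in BPH/2J with vehicle. These ranges overlap, and the difference was 0.09 ± 0.09 (adjusted p = 0.526). Angptl4, a secreted inhibitor of lipoprotein lipase, varied widely within each group, from 2.01 through 4.41 to 16.2 CPM in BPN/3J and from 2.99 through 4.71 to 17.8 CPM in BPH/2J. Its difference was 0.41 ± 0.51 (adjusted p = 0.649), and 0.74 ± 0.52 without the 2 libraries that stand apart (adjusted p = 0.326). Fabp3, the heart's fatty acid binding protein, had a difference of 0.24 ± 0.11 (adjusted p = 0.142), and 5 of 7 BPH/2J libraries exceeded the highest BPN/3J library. In batch 1 alone Fabp3 was called as higher, at 0.37 ± 0.12 (adjusted p = 0.0322). Lpl, Slc27a1, Acsl1 and Acss1 had differences between 0.02 and 0.17.

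In the carnitine shuttle, Cpt1b was lower in BPH/2J. Cpt1b is the muscle form of carnitine palmitoyltransferase 1, the step at which entry into the mitochondrion is controlled. It ran from 513 through 658 to 701 CPM in BPN/3J with vehicle and from 419 through 578 to 646 CPM in BPH/2J with vehicle. The groups overlap, 4 of 7 BPN/3J libraries lay above every BPH/2J library, and the difference was -0.20 ± 0.07 (adjusted p = 0.0435). This call sits close to the threshold and was lost in 16 of 25 alternative settings. Cpt1a, the liver form, had a difference of 0.24 ± 0.13 (adjusted p = 0.211). The matrix enzyme Cpt2 had -0.18 ± 0.08 (adjusted p = 0.141) and the carnitine-acylcarnitine carrier Slc25a20 had -0.30 ± 0.14 (adjusted p = 0.136). Acacb, which makes the Cpt1 inhibitor malonyl-CoA, and Mlycd, which breaks it down, had -0.19 and 0.04, neither past the test.

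Acaa2 showed the clearest separation of the members. Acaa2 is a mitochondrial 3-ketoacyl-CoA thiolase, 1 of the enzymes that can perform the final cut in a turn of beta-oxidation. It ran from 700.5 through 728 to 891 CPM in BPN/3J with vehicle and from 400.0 through 529 to 572 CPM in BPH/2J with vehicle. The lowest of the 7 BPN/3J libraries exceeded the highest of the 7 BPH/2J libraries. The difference was -0.53 ± 0.10 (adjusted p = 0.000307). It was -0.42 in batch 1 alone (adjusted p = 0.000347), and the call was lost only with the kidney-like library in the fit.

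Decr1 and Acads were lower as well, with wider scatter. Decr1, the reductase needed for unsaturated fatty acids, ran from 358 through 401 to 457 CPM in BPN/3J and from 218 through 322 to 364 CPM in BPH/2J. There 6 of 7 BPN/3J libraries lay above every BPH/2J library, and the difference was -0.37 ± 0.11 (adjusted p = 0.0183), but -0.23 in batch 1 alone (adjusted p = 0.0958). Acads, the dehydrogenase of short chains, ran from 161 through 250.4 to 269 CPM in BPN/3J, where the lowest value is replicate 7, and from 143 through 201 to 211 CPM in BPH/2J. The difference was -0.30 ± 0.10 (adjusted p = 0.0356), and the call was lost in 15 of 25 alternative settings. Of the 12 beta-oxidation enzymes, 3 were lower, 0 were higher, and the median was -0.13. Of all genes 9.73% were called as lower and 9.16% as higher. The trifunctional protein subunits Hadha and Hadhb had 0.15 and 0.06, the dehydrogenases Acadvl, Acadl and Acadm had -0.13, 0.02 and -0.25, and Echs1 and the isomerases Eci1 and Eci2 lay between -0.14 and 0.12, none past the test.

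The electron transfer flavoprotein hands electrons from the acyl-CoA dehydrogenases to the respiratory chain. Its beta subunit Etfb ran from 525.6 through 603 to 891 CPM in BPN/3J and from 342 through 502 to 550.5 CPM in BPH/2J. Here 5 of 7 BPN/3J libraries lay above every BPH/2J library, and the difference was -0.38 ± 0.11 (adjusted p = 0.0150). The alpha subunit Etfa had -0.07 ± 0.14 (adjusted p = 0.769) and the dehydrogenase Etfdh had -0.08 ± 0.15 (adjusted p = 0.777).

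Of the triglyceride genes, 2 of 5 were lower, where 9.73% of all genes were called as lower. Dgat2, which adds the last fatty acid to a triglyceride, ran from 124 through 197 to 236 CPM in BPN/3J and from 123 through 149 to 164 CPM in BPH/2J. Among BPN/3J libraries 6 of 7 lay above every BPH/2J library, and the difference was -0.40 ± 0.13 (adjusted p = 0.0237). The call of Dgat2 was lost in 6 of 25 alternative settings, among them batch 1 alone (-0.34, adjusted p = 0.0678) and without replicate 1, 2, 5 or 6 of BPN/3J with vehicle (adjusted p from 0.0507 to 0.0579). Pnpla2, the lipase that starts the breakdown of stored triglyceride, ran from 204 through 282 to 390.0 CPM in BPN/3J and from 158 through 229 to 262 CPM in BPH/2J. Its difference was -0.36 ± 0.09 (adjusted p = 0.00506). Among BPN/3J libraries 4 of 7 exceeded the highest BPH/2J value. Dgat1, the other enzyme of that last step, had -0.13 ± 0.08 (adjusted p = 0.276), and in batch 1 alone it was called as lower at -0.24 ± 0.08 (adjusted p = 0.0468). The lipase Lipe had 0.25 ± 0.13 (adjusted p = 0.204).

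**Figure D2:**
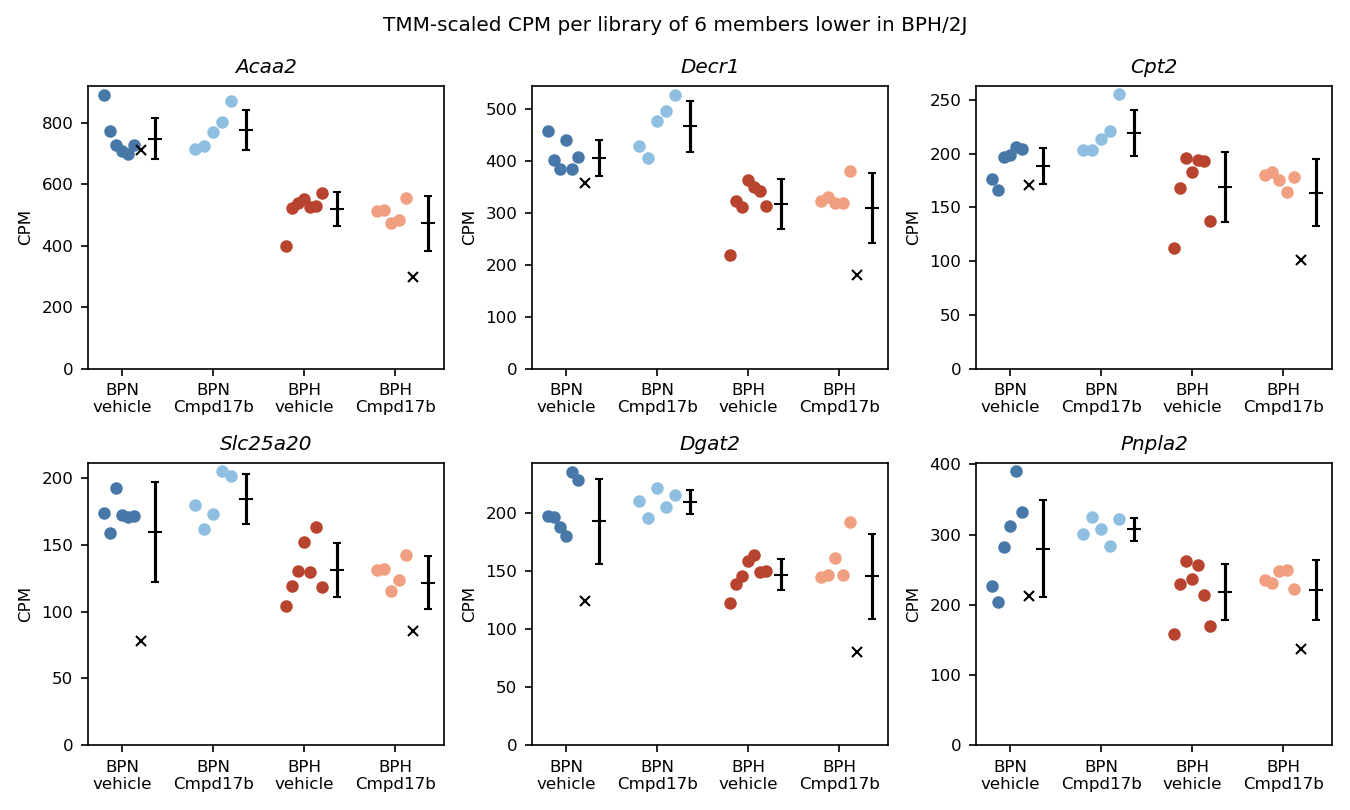
Levels in CPM of 6 members called as lower in BPH/2J in at least 1 of the strain comparisons (Acaa2, Decr1, Cpt2, Slc25a20, Dgat2 and Pnpla2), with 1 point per library in each of the 4 groups, and the mean ± SD of the group. Points drawn as a cross are the 2 libraries that stand apart, BPN/3J vehicle replicate 7 and BPH/2J Cmpd17b replicate 6. For Acaa2 the BPN/3J libraries, from 700.5 CPM upward, lie above every BPH/2J library.

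The genes linked to PPAR activity went the other way in part. Pdk4, the kinase that shuts down pyruvate dehydrogenase and so spares glucose, ran from 122 through 171 to 238 CPM in BPN/3J with vehicle and from 138 through 456 to 695 CPM in BPH/2J with vehicle. In BPH/2J 5 of 7 libraries lay above every BPN/3J library, and those 5 are the batch 1 libraries. The difference was 1.27 ± 0.33 (adjusted p = 0.00723). It was 1.59 ± 0.30 in batch 1 alone (adjusted p = 0.000572) and 0.16 in batch 2 alone, where it was not called (adjusted p = 0.813, 2 libraries against 2).

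Ucp3, the uncoupling protein of muscle mitochondria, had the largest difference of the 40. It ran from 10.1 through 20.3 to 32.6 CPM in BPN/3J with vehicle and from 27.5 through 57.3 to 95.02 CPM in BPH/2J with vehicle. Again 5 of 7 BPH/2J libraries lay above every BPN/3J library, and the difference was 1.35 ± 0.34 (adjusted p = 0.00600). Within batch 1 the difference was 1.58 (adjusted p = 0.0150) and within batch 2 it was 0.71 (adjusted p = 0.0311). Ppara itself ran from 16.4 through 52.5 to 61.7 CPM in BPN/3J and from 46.0 through 51.2 to 74.1 CPM in BPH/2J, with a difference of 0.25 ± 0.19 (adjusted p = 0.410). The difference of Ppargc1a was -0.15 ± 0.14 (adjusted p = 0.523). The thioesterases Acot1 and Acot2 had 0.44 ± 0.18 (adjusted p = 0.0938) and 0.19 ± 0.12 (adjusted p = 0.294). Acot1 and Acot2 are near-identical copies, so how reads were divided between them is uncertain.

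**Figure D3:**
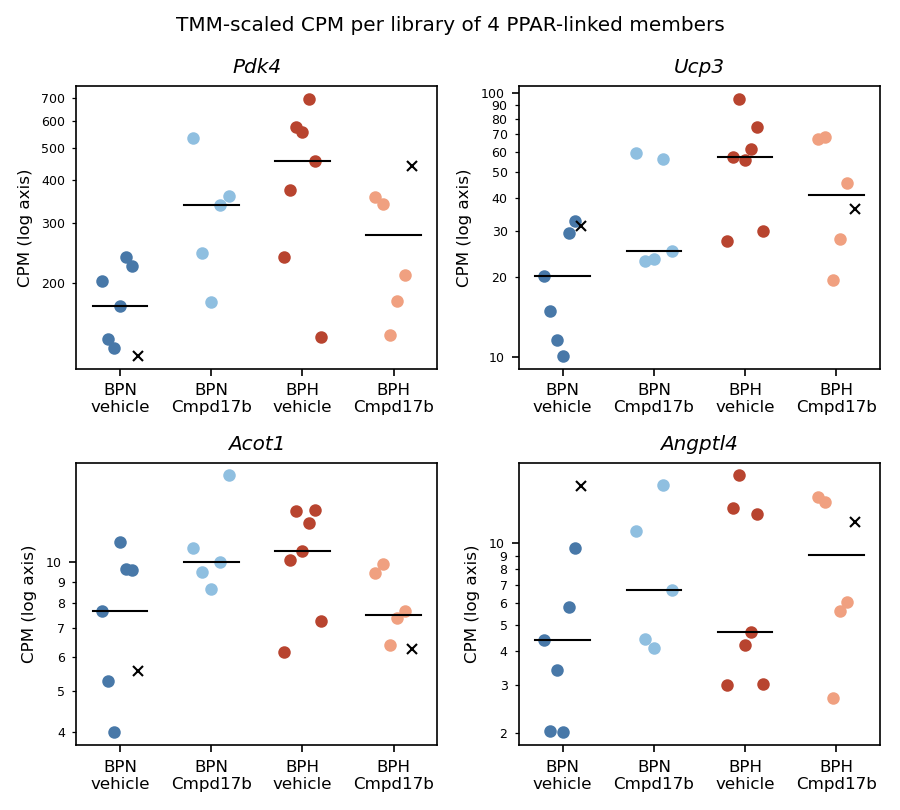
Levels in CPM on log axes of the PPAR-linked members Pdk4, Ucp3, Acot1 and Angptl4, with 1 point per library in each of the 4 groups and a bar at the median. Crosses are the 2 libraries that stand apart. Pdk4 and Ucp3 have medians of 456 and 57.3 CPM in BPH/2J with vehicle against 171 and 20.3 CPM in BPN/3J with vehicle, and the groups given Cmpd17b overlap for all 4 genes.

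Markers of other cells also differed in this comparison. All 5 hepatocyte markers that could be tested were lower in BPH/2J: their summed level, with Fgb, ran from 0.743 to 548 CPM in BPN/3J with vehicle, highest in replicates 1 and 2, and from 0.654 to 4.83 CPM in BPH/2J with vehicle. The atrial marker Myl4 was higher in BPH/2J at 2.39 ± 0.76 (adjusted p = 0.0315), and the heart muscle marker Tnnt2 was lower at -0.26 ± 0.08 (adjusted p = 0.0280). The macrophage marker Mrc1 was higher at 0.32 ± 0.10 (adjusted p = 0.0253). No other heart muscle or macrophage marker was called, and both lists went both ways. Of the macrophage markers, C1qb was at -0.40 and C1qa at -0.20, with Adgre1 at 0.44, Cd68 at 0.16 and Csf1r at 0.07. Of the heart muscle markers, Tnni3 was at -0.24, Myl2 at -0.19, Mb at -0.17 and Actc1 at -0.02. Pln, Ryr2 and Myh6 were at 0.19, 0.16 and 0.03. Cubn, a kidney tubule gene, was lower in BPH/2J in both strain comparisons, by -4.0002 and -3.26, at no more than 4.46 CPM in any library. The part of these cells in the member differences was not tested.

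The second comparison set the strains against each other under Cmpd17b. Here all members called were lower in BPH/2J: 8 of 40, where 14.1% of all genes were called, 7.48% as higher and 6.65% as lower. The median of the members was -0.22 and 35 of 40 were negative, against an all-gene median of 0.01. The 8 were Cpt1b, Cpt2 and Slc25a20 of the carnitine shuttle, Hadh, Acaa2 and Decr1 of beta-oxidation, and Dgat2 and Pnpla2. Of these, 5 were also called under vehicle (Cpt1b, Acaa2, Decr1, Dgat2 and Pnpla2), which is 5 of 9 there and 5 of 8 here. How many of all genes were called in both comparisons was not counted, so this overlap cannot be taken as particular to the members. The 2 comparisons use different mice, but were fitted together, with a common spread and batch effect.

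Without the 2 libraries that stand apart, 16 members were called in this comparison (40%), again all lower, and these included the 8 called with 25 libraries. Of all genes 19.1% were then called, 9.47% as higher and 9.59% as lower. The added members were Crat, Acadm, Acads, Etfa, Etfb, Etfdh, Plin5 and Ppargc1a. Leaving out any 1 library of the 2 groups compared gave 6 or 7 members, where 11.7% to 13.3% of all genes were called. Of the 2 libraries that stand apart, only BPH/2J Cmpd17b replicate 6 is in the groups compared here. Without that library alone the count was 6, where 13.0% of all genes were called. The rise to 16 did not come with larger differences. The member median was -0.18 with 32 negative without the 2 libraries, against -0.22 with 35 negative with 25 libraries. Each of the 16 had a smaller difference and a smaller standard error, as Acaa2 with -0.61 ± 0.08 against -0.70 ± 0.12.

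**Figure D4:**
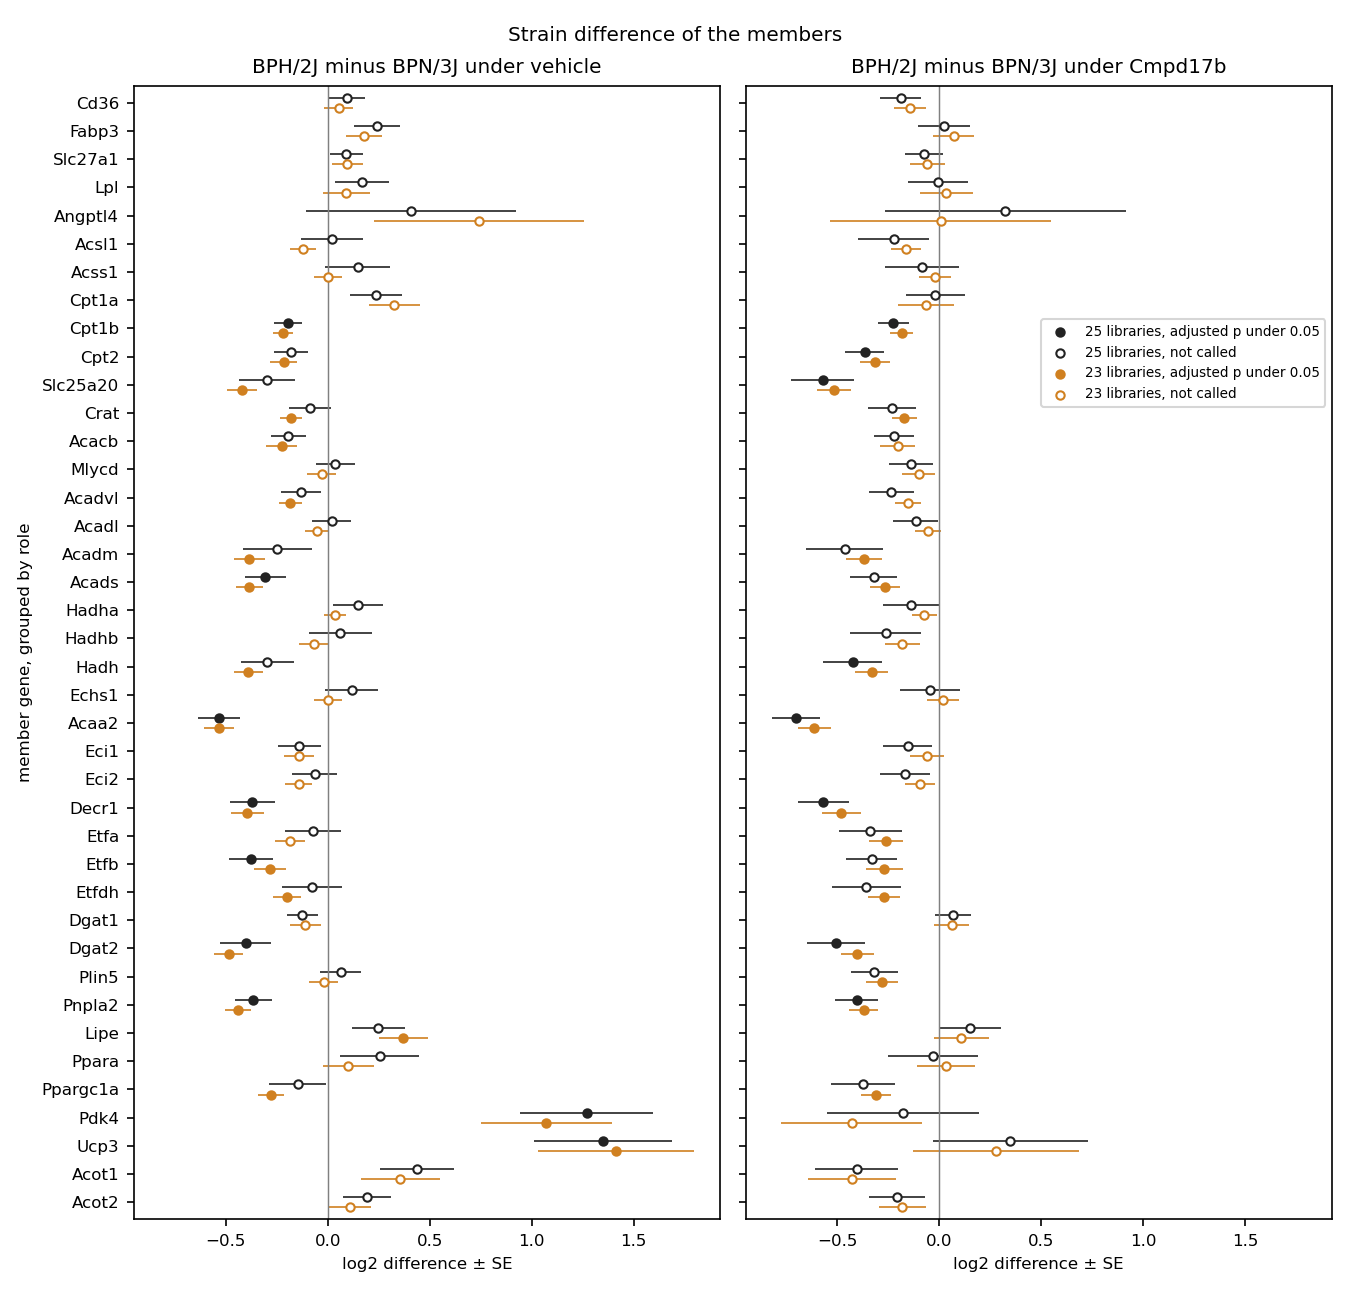
Difference in log2 level, BPH/2J minus BPN/3J, for each of the 40 members under vehicle (left) and under Cmpd17b (right), with its standard error, from the 25 libraries (black) and from 23 without the pair that stands apart (orange). Filled points passed the test at an adjusted p of 0.05. With 25 libraries, under vehicle 2 members are called to the right of 0 and 7 to the left, and under Cmpd17b 8 are called to the left.

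Acaa2 again had the smallest adjusted p of the members. The 5 BPN/3J libraries with Cmpd17b had 716, 724, 773, 805 and 873 CPM of Acaa2, and the 6 BPH/2J libraries ran from 299 through 498 to 557 CPM. The groups did not overlap, and the difference was -0.70 ± 0.12 (adjusted p = 5.76e-05). The lowest BPH/2J value is replicate 6, and without that library and BPN/3J vehicle replicate 7 the gene was still called.

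Decr1 had 429, 405, 476, 495 and 526.3 CPM in BPN/3J with Cmpd17b and ran from 180.0 through 321 to 381 CPM in BPH/2J. All 5 BPN/3J libraries lay above every BPH/2J library, and the difference was -0.57 ± 0.13 (adjusted p = 0.00172). Hadh, the dehydrogenase of medium and short 3-hydroxyacyl chains, had 270.0, 246, 250.2, 309 and 291 CPM in BPN/3J and ran from 146 through 207 to 257 CPM in BPH/2J. These groups overlap, with 3 of 5 BPN/3J libraries above all BPH/2J ones, and the difference of -0.43 ± 0.15 was near the threshold (adjusted p = 0.0493). Under vehicle Hadh ran from 139.6 through 256 to 335 CPM in BPN/3J and from 189 through 206 to 231 CPM in BPH/2J, with a difference of -0.30 ± 0.13 (adjusted p = 0.114).

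In the carnitine shuttle, Slc25a20 showed the largest difference under the drug. It had 179.6, 162, 173, 205 and 202 CPM in BPN/3J with Cmpd17b and ran from 85.6 through 127 to 142 CPM in BPH/2J with Cmpd17b. The groups did not overlap, and the difference was -0.57 ± 0.15 (adjusted p = 0.0102). Under vehicle it ran from 78.0 through 171 to 193 CPM in BPN/3J, where the lowest value is replicate 7, and from 104 through 129 to 163 CPM in BPH/2J. Cpt2, which turns carnitine esters back to acyl-CoA in the matrix, had 204, 204, 214, 221 and 255 CPM in BPN/3J with Cmpd17b and ran from 101 through 177 to 183 CPM in BPH/2J. Its groups did not overlap, and its difference was -0.37 ± 0.10 (adjusted p = 0.00754). Under vehicle Cpt2 ran from 166 through 197 to 206 CPM in BPN/3J and from 112 through 183 to 196 CPM in BPH/2J. Cpt1b had 682, 704, 649, 646 and 649.6 CPM in BPN/3J with Cmpd17b and ran from 345 through 579 to 612 CPM in BPH/2J, with a difference of -0.23 ± 0.08 (adjusted p = 0.0497). This call was lost in 15 of 21 alternative settings, and so was that of Hadh.

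Dgat2 had 210.4, 196, 222, 205 and 216 CPM in BPN/3J with Cmpd17b and ran from 79.9 through 147 to 192 CPM in BPH/2J. The groups did not overlap, and the difference was -0.51 ± 0.14 (adjusted p = 0.0143). Pnpla2 had 300.4, 325, 308, 284 and 322 CPM and ran from 137 through 234 to 249.99 CPM in BPH/2J. Its groups did not overlap either, and the difference was -0.40 ± 0.11 (adjusted p = 0.00781). Acads and Etfb, called under vehicle, had -0.32 ± 0.12 (adjusted p = 0.0642) and -0.33 ± 0.12 (adjusted p = 0.0787). Acads had 232, 251, 242, 232 and 290.4 CPM in BPN/3J with Cmpd17b against 131 through 198 to 239.9 CPM in BPH/2J. Etfb had 519, 545, 605, 662 and 624.7 CPM against 291 through 482 to 525.8 CPM.

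Pdk4 and Ucp3 were not called between the strains under Cmpd17b. Pdk4 had 533, 245, 175, 339 and 361 CPM in BPN/3J with Cmpd17b and ran from 140.2 through 276 to 441 CPM in BPH/2J, a difference of -0.18 ± 0.37 (adjusted p = 0.829). Ucp3 had 59.2, 23.1, 23.5, 56.1 and 25.1 CPM and ran from 19.5 through 40.9 to 68.1 CPM in BPH/2J, a difference of 0.35 ± 0.38 (adjusted p = 0.641). In BPN/3J with Cmpd17b the same replicates, 1 and 4, were highest for Ucp3 and for Angptl4, which had 11.1, 4.44, 4.11, 16.3 and 6.70 CPM. Angptl4 ran from 2.69 through 9.04 to 14.8 CPM in BPH/2J with Cmpd17b. Cd36 had 1355, 1213, 1502, 1455 and 1642 CPM in BPN/3J with Cmpd17b and ran from 1043 through 1328 to 1388 CPM in BPH/2J, a difference of -0.19 ± 0.10 (adjusted p = 0.252). Ppara had 50.7, 67.2, 68.2, 52.3 and 62.5 CPM and ran from 41.0 through 58.8 to 69.5 CPM, a difference of -0.03 ± 0.22 (adjusted p = 0.955).

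In this comparison the atrial marker Nppa was higher in BPH/2J at 2.12 ± 0.47 (adjusted p = 0.00263), and so was the fibroblast marker Postn at 2.13 ± 0.64 (adjusted p = 0.0283). No other atrial or fibroblast marker tested was called. Myl4, Col1a1, Col1a2, Lum and Pdgfra were positive, and Dcn was negative at -0.16. Summed fibroblast markers ran from 598 to 701 CPM in BPN/3J with Cmpd17b and from 603 to 2141 CPM in BPH/2J with Cmpd17b. The library at 2141 CPM is replicate 6, and without it alone 6 members were called, all lower, where 13.0% of all genes were called. The part of these markers in the lower members was not tested.

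The effect of the drug was then asked within each strain. No member passed the test in either strain, and 0 of 15543 genes (0%) were called in each. At an unadjusted p under 0.05 there were 287 genes in BPH/2J, 1 of them a member (Acot1), and 1506 genes in BPN/3J, 1 of them a member (Pdk4). DESeq2 called 0 genes in BPH/2J and 1 in BPN/3J, which was no member. In simulated counts with the spread of these libraries, the test recovered 71.4% of genes changed 2-fold and 53.1% of those changed 1.5-fold in BPH/2J, and 70.7% and 53.5% in BPN/3J. The changed genes were drawn from all genes tested, so these shares are not those of the members. In BPH/2J the standard error was 0.11 for Acaa2 and 0.07 for Cpt1b, but 0.34 for Pdk4, 0.34 for Ucp3 and 0.53 for Angptl4. Changes of that size could be missed in members of wide spread such as the last 3.

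In BPN/3J, Pdk4 was at a median of 171 CPM with vehicle and 339 CPM with Cmpd17b, and 4 of 5 drug libraries lay above every vehicle library. The difference was 0.85 ± 0.36, with an adjusted p of 0.514. In BPH/2J its medians were 456 CPM with vehicle and 276 CPM with Cmpd17b, and the difference was -0.60 ± 0.34 (adjusted p = 1.00). Without the 2 libraries that stand apart the Pdk4 differences were 0.56 ± 0.36 in BPN/3J (adjusted p = 0.846) and -0.95 ± 0.33 in BPH/2J (adjusted p = 1.00). Ucp3 had 0.61 in BPN/3J (adjusted p = 0.563) and -0.39 in BPH/2J (adjusted p = 1.00). Acot1 ran from 4.002 through 7.67 to 11.2 CPM in BPN/3J with vehicle, and had 10.8, 9.46, 8.64, 9.99 and 15.9 CPM with Cmpd17b. In BPH/2J Acot1 ran from 6.16 through 10.6 to 13.2 CPM with vehicle and from 6.26 through 7.53 to 9.90 CPM with Cmpd17b. Its differences were 0.40 ± 0.20 in BPN/3J (adjusted p = 0.532) and -0.45 ± 0.19 in BPH/2J (adjusted p = 1.00).

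The difference between these drug effects, the interaction of strain and drug, was tested directly. No member and no gene passed (0% of 15543), with 595 genes at an unadjusted p under 0.05. Of the members, 5 were among those: Cd36, Plin5, Pdk4, Acot1 and Acot2, the last 2 and Plin5 being singled out after their values were seen. The interaction was -1.45 ± 0.50 for Pdk4, -0.85 ± 0.27 for Acot1, -0.38 ± 0.15 for Plin5, -0.40 ± 0.18 for Acot2 and -0.28 ± 0.14 for Cd36, and each had an adjusted p of 0.917 in edgeR's test.

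Plin5, which ties lipid droplets to mitochondria, ran from 58.3 through 90.7 to 102 CPM in BPN/3J with vehicle and had 94.5, 107, 96.2, 98.0 and 124 CPM with Cmpd17b. In BPH/2J it ran from 60.1 through 94.1 to 112 CPM with vehicle and from 53.6 through 83.5 to 92.0 CPM with Cmpd17b. Under Cmpd17b every BPN/3J library was above every BPH/2J library for Plin5, with an adjusted p of 0.0635 between the strains in edgeR's test.

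The median of the 40 members was -0.08 for the drug in BPH/2J, with 33 negative, 0.13 for the drug in BPN/3J, with 8 negative, and -0.18 for the interaction, with 38 negative. All-gene medians were 0.00, -0.01 and 0.01. The interaction shares its 4 groups with the other comparisons, so these are not separate observations. Without the 2 libraries that stand apart, the medians were -0.01, with 21 negative, 0.06, with 13 negative, and -0.07, with 26 negative. Each of these shifts was thus smaller without BPN/3J vehicle replicate 7 and BPH/2J Cmpd17b replicate 6.

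**Figure D5:**
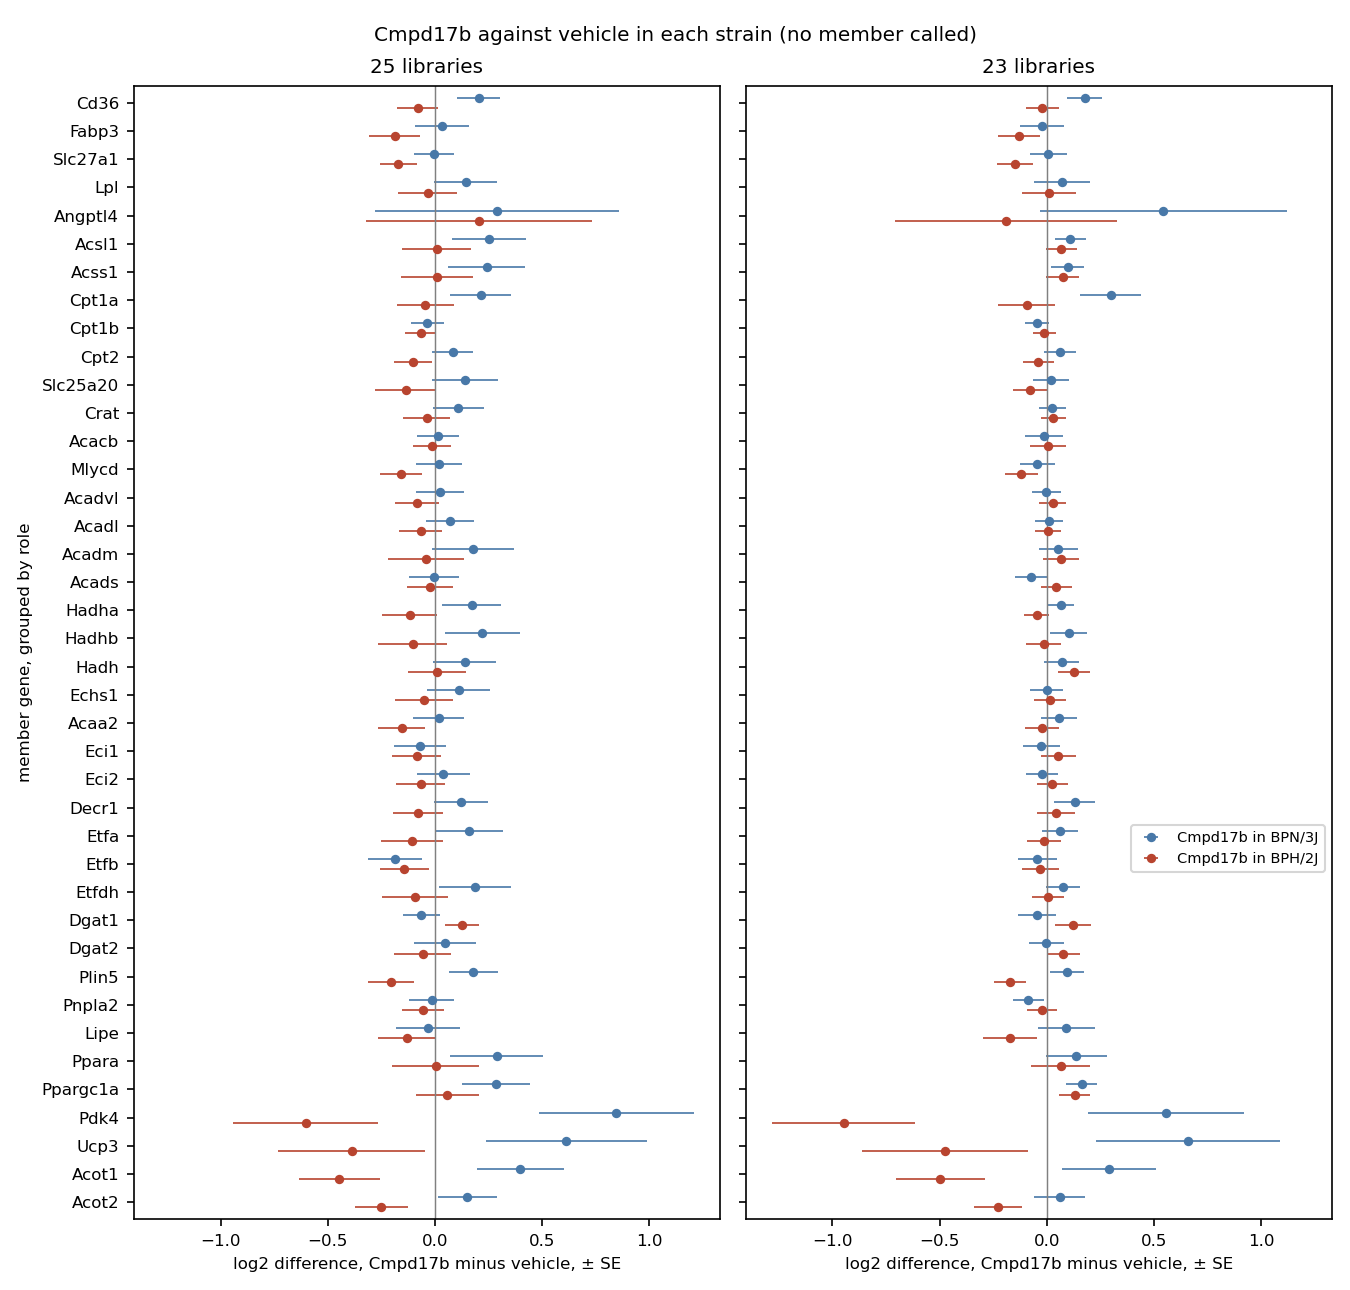
Difference in log2 level, Cmpd17b minus vehicle, for each of the 40 members in BPN/3J (blue) and in BPH/2J (red), with its standard error, from the 25 libraries (left) and from 23 (right). No member passed the test in either strain. With 25 libraries Pdk4 lies at -0.60 in BPH/2J and at 0.85 in BPN/3J.

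The genes around the members were described with 8 further lists of lipid genes. Beside the counts of each list stand the shares of all genes tested. Under vehicle 9.16% of all genes were called as higher and 9.73% as lower, and under Cmpd17b 7.48% and 6.65%. In the strain comparison under vehicle, 6 of 19 other genes of mitochondrial oxidation and carnitine handling were lower and 0 higher, and under Cmpd17b 7 were lower and 0 higher, with list medians of -0.11 and -0.25. Acsm5, a medium-chain acyl-CoA synthetase, had a median of 7.16 CPM in BPN/3J and 2.07 CPM in BPH/2J with vehicle, a difference of -1.75 ± 0.19. Aldh9a1, an enzyme of carnitine synthesis, was lower by -0.95 under vehicle and -0.75 under Cmpd17b. Acsf2 was lower by -0.49 and -0.79. Echdc3 was lower in both as well, by -0.35 and -0.36, and Slc22a5, the carnitine importer of the cell surface, was lower under Cmpd17b by -0.30.

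Peroxisomal genes were called in both directions, with 2 of 22 higher and 4 lower under vehicle and 1 higher and 5 lower under Cmpd17b, and list medians of -0.13 and -0.20. The 2 higher under vehicle are near the 9.16% of all genes called as higher. Abcd2, a peroxisomal importer of very long chains, was higher by 1.34 ± 0.16 under vehicle and 0.99 under Cmpd17b. Abcd3, its relative, was higher by 0.32 under vehicle. Decr2, the peroxisomal counterpart of Decr1, was lower by -0.59 and -0.50. Acaa1b, a peroxisomal thiolase, was lower by -1.07 under vehicle. Pex11a, a peroxisome division gene, was lower by -0.39 under vehicle and -0.52 under Cmpd17b, and Acot3 was lower under Cmpd17b by -1.14.

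Of 16 genes that make or desaturate fatty acids, 6 were lower and 2 higher under vehicle, and 2 were lower and 1 higher under Cmpd17b, with list medians of -0.22 and -0.02. Of all genes 9.73% were lower and 9.16% higher under vehicle, and 6.65% and 7.48% under Cmpd17b. Fasn, fatty acid synthase, had a median of 17.5 CPM in BPN/3J and 9.05 CPM in BPH/2J with vehicle, a difference of -0.99 ± 0.11, and -0.88 under Cmpd17b. The desaturases went both ways under vehicle, with Scd1 at -0.92 and Fads3 at -0.26, and Scd4 at 1.46. Me1, which supplies NADPH for synthesis, was lower by -0.51 under vehicle and -0.77 under Cmpd17b. Acly, which supplies cytosolic acetyl-CoA, was higher by 0.30 and 0.44. Fasn, Scd1 and Acaa1b are also strongly expressed in liver, and the hepatocyte markers named above differed in the vehicle comparison. Under Cmpd17b no hepatocyte marker was called. There Fasn was lower as well, while Scd1 and Acaa1b were not called. The part of liver RNA in these differences was not tested.

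Among the ketone body genes, Bdh1, the first step of ketone use, was higher in BPH/2J by 0.90 ± 0.14 under vehicle and 0.83 under Cmpd17b. All 7 BPH/2J libraries with vehicle, from 163 to 222 CPM, lay above all 7 of BPN/3J, from 52.9 to 140.3 CPM. Of 13 pyruvate and uncoupling genes, 0 were higher and 2 lower in each comparison. Of all genes 9.73% were called as lower under vehicle and 6.65% under Cmpd17b. Ucp2, a relative of Ucp3, was lower by -1.67 ± 0.14 under vehicle and -1.69 ± 0.16 under Cmpd17b, and Pdp1, the phosphatase that switches pyruvate dehydrogenase back on, was lower by -0.40 and -0.54. Ucp2 had a median of 108 CPM in BPN/3J and 34.2 CPM in BPH/2J with vehicle, so Ucp2 and Ucp3 differed in opposite directions there.

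Of 22 triglyceride and lipid droplet genes, 2 were higher and 2 lower under vehicle, near the 9.16% and 9.73% of all genes, and 0 were higher and 2 lower under Cmpd17b. Cidea, a droplet protein, was lower by -0.61 and -0.51 and Agpat5 by -0.35 and -0.51. Gpam, the first step of triglyceride synthesis, and G0s2, an inhibitor of the lipase made by Pnpla2, were higher under vehicle by 0.46 and 0.50. Of 17 other uptake and activation genes, 1 was higher and 4 lower under vehicle, beside the same 9.16% and 9.73%, and none was called under Cmpd17b. Acsl3 was higher by 0.35, and Gpihbp1, which anchors lipoprotein lipase on capillaries, was lower by -0.54, with Lmf1 at -0.25 and Slc27a4 at -0.24. Of 22 regulators, Ppargc1b, a coactivator related to Ppargc1a, was higher by 0.51 under vehicle, Prkab2, a subunit of AMP-activated kinase, was lower by -0.41 and -0.49, and Kat2a was higher by 0.43 under Cmpd17b. Each gene named from these lists passed the same test at an adjusted p of 0.05, and none of the lists had a gene called for the drug in either strain or for the interaction.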

How the data were processed

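RNA from left ventricle was sequenced in 26 libraries, and 25 were used. Trim Galore 0.6.7 for trimming and STAR 2.7.9a for alignment, with the build GRCm39 (mm39), are named in the labels, per the submitters' processing notes. How genes were counted, with or without strand, is not given in the sources used here. The authors deposited expected counts per gene, 93.3% of them exact whole numbers, and the counts were rounded. No 2 libraries of a group were identical (67 pairs). Titles name separate animals, and groups, batch and dose come from the labels.

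Genes were kept with filterByExpr on the 4 groups (minimum count 10, minimum total 15), scaled by TMM and fitted over all 25 libraries in edgeR 4.0.16 under R 4.3.3, as a robust quasi-likelihood model of group and batch with its F-test. The standard error is the log2 difference divided by the square root of F. P-values were adjusted over all 15543 genes by Benjamini-Hochberg. CPM are TMM-scaled. The test was checked on simulated counts. RLE scaling, DESeq2 1.42.0, limma 3.58.1 voom with quality weights, no filter, mitochondrial genes left out, other batch handling, other sets of libraries and leaving out each library were the alternatives. Promoter windows come from RefSeq tables.

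The members and lists were chosen with earlier results of these data known. Values by library were given for the members called in any contrast, up to 12, and for Cpt1b, Cd36, Ppara, Pdk4, Ucp3 and Angptl4; of other lists, up to 4 called genes per list and contrast by smallest p were named. Of the ketone body list, 1 called gene is described and the others are not reported here.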

Additional observations from a re-analysis of the deposited data

Results flagged for a closer look

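Of the 160 combinations of member and group, 34 held a library set apart from the others of its group by more than Dixon's 95% limit. The members were measured in the same libraries, so the combinations are not separate tests and the count cannot be set against a rate by chance. In 33 of the 34 the library was low. They came from 4 libraries.

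BPN/3J vehicle replicate 7 was low for 13 members. These were Acsl1 at 226 CPM (others 527 to 742), Acss1 at 106 CPM (others 282 to 376), Slc25a20 at 78.0 CPM (others 159 to 193), Acadl at 574 CPM (others 851 to 1042) and Acadm at 454 CPM (others 1173 to 1693). Further ones were Acads at 161 CPM (others 225 to 269), Hadha at 599.8 CPM (others 1033 to 1286), Hadhb at 790.4 CPM (others 1793 to 2184) and Echs1 at 136 CPM (others 279 to 365). The rest were Eci2 at 75.0 CPM (others 114 to 136), Etfa at 233 CPM (others 478 to 664), Etfdh at 248 CPM (others 530.2 to 619.6) and Ppargc1a at 25.5 CPM (others 58.3 to 72.9).

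BPH/2J Cmpd17b replicate 6 was low for 15 members. These were Cpt1b at 345 CPM (others 558 to 612), Cpt2 at 101 CPM (others 165 to 183), Crat at 231 CPM (others 435 to 447), Acacb at 152 CPM (others 201 to 224) and Mlycd at 67.7 CPM (others 101 to 105). Further ones were Acadvl at 539.8 CPM (others 975 to 1095), Hadha at 725 CPM (others 1190.5 to 1309.7), Hadhb at 1217 CPM (others 1871 to 2178), Acaa2 at 299 CPM (others 474 to 557) and Eci2 at 71.7 CPM (others 108 to 121). The rest were Decr1 at 180.0 CPM (others 318 to 381), Etfb at 291 CPM (others 448 to 525.8), Etfdh at 302 CPM (others 482 to 573), Plin5 at 53.6 CPM (others 82.6 to 92.0) and Pnpla2 at 137 CPM (others 223 to 249.99).

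BPH/2J vehicle replicate 1 was low for 5 members: Acadvl at 705 CPM (others 905 to 1055), Acaa2 at 400.0 CPM (others 524 to 572), Eci2 at 83.0 CPM (others 111 to 119), Decr1 at 218 CPM (others 311 to 364) and Etfb at 342 CPM (others 482 to 550.5). BPN/3J vehicle replicate 1 was high for 1 member, Acaa2 at 891 CPM (others 700.5 to 774).

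The library of BPH/2J with Cmpd17b that has a kidney profile was in no comparison. Scaled together with the other 25, it lay above all of them for 5 members and below all of them for 26. The 5 were Cpt1a at 309 CPM (others 24.2 to 50.9), Hadh at 403 CPM (others 142 to 342), Dgat1 at 19.2 CPM (others 11.8 to 17.7), Ppara at 108 CPM (others 16.7 to 74.9) and Acot1 at 33.5 CPM (others 4.04 to 16.1).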

How the results depend on the processing

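Of 40 members, 9 were called between the strains under vehicle and 8 under Cmpd17b. With voom and quality weights these became 18 and 16 (26.7% and 21.9% of all genes), without the 2 libraries that stand apart 19 and 16 (25.8% and 19.1%), with all 26 libraries 0 and 4 (9.59% and 7.68%), and with only the groups compared in the fit 7 and 16 (15.3% and 19.9%). Leaving out 1 library gave 5 to 17 under vehicle: 5 without BPN/3J vehicle replicate 1 (17.4% of all genes) and 17 without BPN/3J vehicle replicate 7 (24.2%). Under Cmpd17b it gave 6 to 7, where 11.7% to 13.3% of all genes were called. The drug contrasts and the interaction stayed at 0 members, except batch 2 alone in BPH/2J, which called 1, Angptl4 (1.98, adjusted p = 0.0374 in edgeR's test), with 122 genes in all; its drug arm is 1 library, assumed to vary like the others. Over all genes, 2936 were called under vehicle, 1492 with all 26 libraries and 1130 in batch 2 alone; under Cmpd17b 2197 were called, 3405 with voom and 1195 with all 26.

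Under vehicle, the sign of the strain difference changed for 5 of 40 members without the 2 libraries (Acadl, Acsl1, Hadhb, Mlycd and Plin5), for 3 in batch 1 alone (Eci2, Etfa and Etfdh) and for 12 in batch 2 alone; under Cmpd17b it changed for 3 without the 2 libraries and 3 in batch 1 alone. For the drug, without the 2 libraries it changed for 14 members in BPH/2J and 9 in BPN/3J, and for 12 in the interaction. None of these members was called in either fit. Values follow for the members tracked singly. In batch 2 alone the strain difference under vehicle was -0.11 for Cd36, -0.0940 for Angptl4, -0.19 for Plin5 and -0.17 for Acot2, and the drug difference in BPH/2J was 1.21 for Pdk4 and 0.32 for Ucp3. In batch 1 alone Etfdh was 0.0890 under vehicle. Plin5 under vehicle was -0.0202 without the 2 libraries, and between -0.0250 (without BPN/3J vehicle replicate 7) and 0.117 with 1 library left out. Pdk4 under Cmpd17b was between -0.431 and 0.0593 with 1 library left out, the last without BPN/3J Cmpd17b replicate 1, and Acot1 in BPH/2J was 0.0871 with all 26 libraries. The cause was not tested. No paired analysis was possible because the labels give each animal its own number and share none between groups.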
